A study of Mus musculus with 12 samples.

Results

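Lymphotoxin beta and 4 receptors of the tumour necrosis factor (TNF) family were followed in plasma cells of mouse bone marrow: the ligand gene Ltb, its receptor gene Ltbr, and the receptor genes Tnfrsf1b, Cd27 and Cd40. All 5 names were found among the 14219 genes of the deposited day 60 table. The genes were chosen by their measured levels in marked and unmarked cells on day 60. That difference is therefore given as a description without a test. Earlier results of these data were also known at the choice, so p-values of the 5 genes in other comparisons are no independent tests. The cells came from C57BL/6 mice of the genotype BLTcre.mcl1fl/+, in which a floxed Mcl1 allele stands beside an intact one, and tamoxifen had turned on a human CD4 reporter. Cells carrying human CD4 (marked cells here) and cells without it (unmarked cells) were sorted on day 60 or day 270 after tamoxifen, which gave 4 groups of 3 libraries. Genotype, strain and tamoxifen are common to all 4 groups, so no group without Cre or without the floxed allele was measured. Whether the floxed allele was lost in marked cells was not tested. Such a loss and the mark cannot be told apart in any marked minus unmarked difference. The labels give no age, no sex and no antigen, and they do not say what drives the Cre.

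Ltb encodes a membrane protein that joins lymphotoxin alpha in a heterotrimer, and this trimer binds the lymphotoxin beta receptor encoded by Ltbr. Signalling through the receptor on stromal cells builds and maintains lymph nodes and follicular dendritic cell networks, with lymphocytes as the usual source of the ligand and stromal and myeloid cells as the usual carriers of the receptor. Tnfrsf1b encodes the second TNF receptor, Cd27 the receptor of CD70, which in the human marks memory B cells and plasma cells, and Cd40 the receptor through which helper T cells activate B cells. The receptors recruit TRAF adaptors and feed into the NF-kB pathways.

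Ltb (ENSMUSG00000024399) lies on chr17:35194439-35196320 of GRCm38, on the plus strand, in a cluster of TNF family ligands. Tnf lies 3.06 kb from it and Lta, the gene of lymphotoxin alpha, 6.84 kb from it. Ltbr (ENSMUSG00000030339) lies on chr6:125306571-125313885, minus strand, 35.5 kb from Tnfrsf1a and 69.6 kb from Cd27 (ENSMUSG00000030336, chr6:125232622-125237010, minus strand). Tnfrsf1b (ENSMUSG00000028599) lies on chr4:145213463-145246870, minus strand, and Cd40 (ENSMUSG00000017652) on chr2:165055627-165072948, plus strand. The sequences just upstream of the ligand and of its receptor are shown because these genes differed in opposite directions between marked and unmarked cells on day 60. They are RefSeq sequences on GRCm38.p6, written 5′ to 3′ along each gene, for Ltb from chr17:35194257-35194438 on the plus strand and for Ltbr from chr6:125313886-125314135 on the minus strand.
Ltb upstream: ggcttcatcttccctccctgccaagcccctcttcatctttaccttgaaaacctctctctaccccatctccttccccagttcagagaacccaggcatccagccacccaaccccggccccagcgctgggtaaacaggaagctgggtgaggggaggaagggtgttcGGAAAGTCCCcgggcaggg
Ltbr upstream: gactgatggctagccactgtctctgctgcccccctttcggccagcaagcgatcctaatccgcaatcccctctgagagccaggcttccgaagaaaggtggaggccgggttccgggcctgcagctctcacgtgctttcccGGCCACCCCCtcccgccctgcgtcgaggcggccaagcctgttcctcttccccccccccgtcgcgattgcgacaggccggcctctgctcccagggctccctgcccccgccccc
Capitals mark a match to the general kappa B pattern GGGNNNNNCC, searched on both strands. The 250 bases before the RefSeq start of Ltb hold 5 matches. The 4 that lie 40 to 29 bases before that start are among 68 bases not printed, because GENCODE M21 starts the gene further upstream. The marked bases of Ltb are the reverse complement of GGGACTTTCC and lie 87 to 78 bases before the RefSeq start. This decamer, looked up after the sequence had been seen, was found in 46 of 32851 promoter windows of 250 bases (0.14%) and, among the 4 of the 5 genes with a window, only in that of Ltb. The general pattern was found in 4 of 4 windows, as it was in 45.8% of all windows. No binding was measured, so these matches describe letters only.

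The libraries held 7449468 to 15943547 reads over the genes of the table, and the values below are CPM (reads scaled to a common total). Plasma cell markers (9 of 9 in the table, with Jchain and Xbp1 among them) summed to 90396 to 326156 CPM per library, with the lowest sum in replicate 2 of the day 270 marked cells. Markers of other cells differed between the groups. B cell markers (14 of 14) summed to 2226 to 2521 CPM in the unmarked and 1278 to 1684 in the marked libraries. Single markers of this list went both ways. Cd79a alone averaged 820 CPM in unmarked against 417 in marked cells on day 60, and 929 against 338 on day 270. Monocyte and macrophage markers (13 of 13) reached 329 to 742 CPM in day 270 marked cells against 119 to 414 in the other groups. Hemoglobin and other erythroid markers (7 of 9) reached 180 to 788 CPM in day 270 marked and 107 to 346 in day 60 marked cells, against 28.5 to 166 in unmarked cells. Neutrophil markers (9 of 9) ranged widely within each group, over 21.7 to 286, 1.29 to 776, 37.5 to 208 and 77.2 to 514 CPM in day 60 unmarked, day 60 marked, day 270 unmarked and day 270 marked libraries. Dendritic cell markers (7 of 9) summed to 15.5 to 59.9 CPM and overlapped between marked and unmarked cells on both days. Replicates 2 and 3 of the day 270 marked cells had the highest erythroid sums and the fewest genes with a read, 11022 and 11301. Mcl1, which has 1 floxed allele, was at 482.6 to 538.8 CPM in day 60 unmarked, 341.6 to 508.5 in day 60 marked, 527.0 to 589.6 in day 270 unmarked and 384.3 to 512.8 in day 270 marked libraries. In bulk RNA, fewer cells with a transcript and less of it per cell cannot be told apart.

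On day 60, Ltb was lower and Ltbr higher in marked than in unmarked cells, and on day 270 both differences had the same direction without passing the test. Library ranges of the groups did not overlap for 3 of the 5 genes on day 60: Ltbr was higher in marked cells, where 4.46% of the 12704 genes tested were higher without overlap, and Ltb and Tnfrsf1b were lower, where 11.3% of all genes were. The choice of the genes used this contrast, so nothing is read from that count. Over all genes, 24 of 12704 (0.189%) were called on day 60. On day 270 Ltbr was higher without overlap (background 3.28%) and Cd27 lower without overlap (background 12%). Earlier results of these data were known at the choice of the genes, so nothing is read from the day 270 count either. None of the 5 genes was called on day 270 by limma with adjusted p under 0.05, where 0.48% of all genes were called (61 genes, or 5 without unmarked replicate 1 and 482 without marked replicate 1). At an unadjusted p under 0.05 the count was 1, Ltbr, beside 1773 of all 12704 genes, and DESeq2, edgeR and limma-voom on the recovered reads also called 0.

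**Figure D1:**
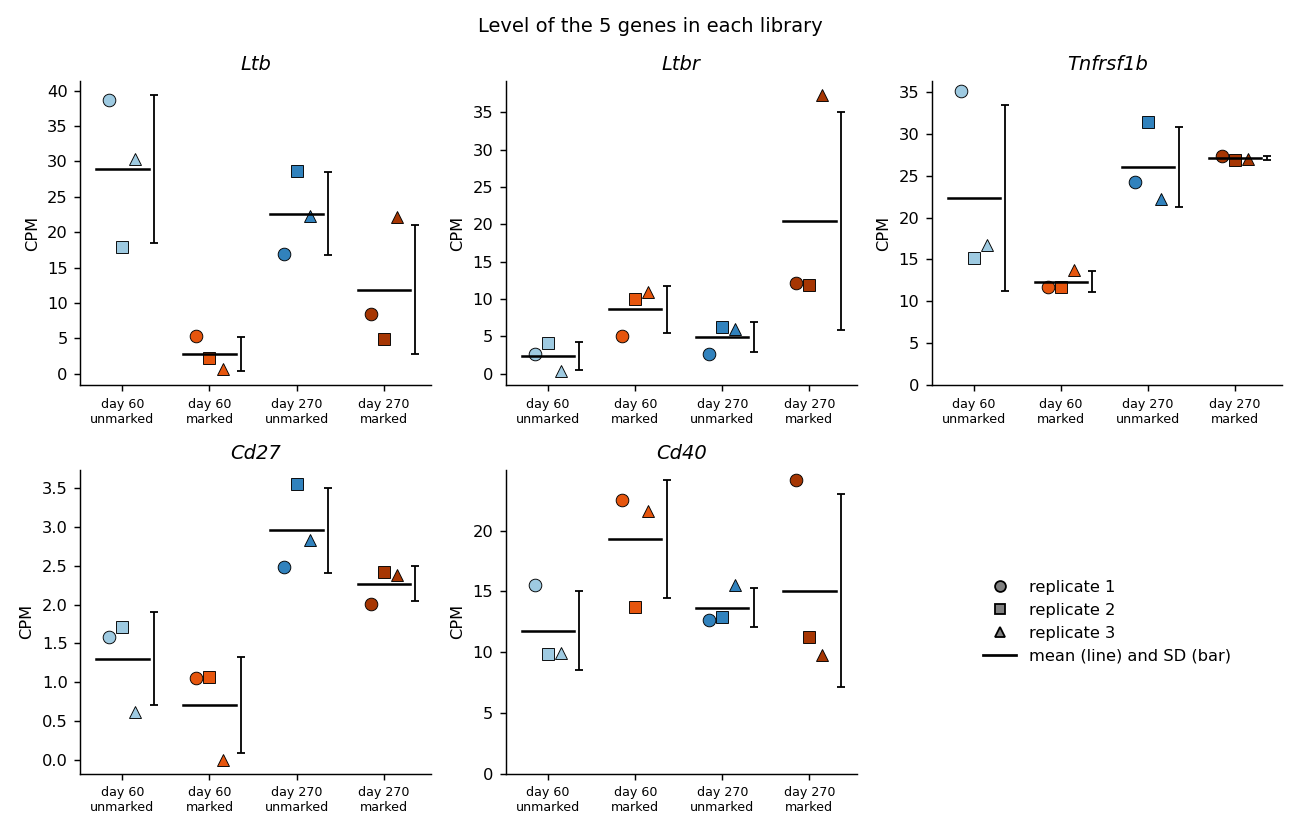
Level of Ltb, Ltbr, Tnfrsf1b, Cd27 and Cd40 (vertical axes, CPM, each panel with its own scale) in the 12 libraries by group; points are libraries, shaped by replicate, lines are means of 3 and bars the SD. Ltb of the day 60 marked cells lies at 0.626 to 5.339 CPM, under the other 3 groups apart from 1 day 270 marked library at 4.967, and Ltbr has its highest value, 37.33, in day 270 marked replicate 3.

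Ltb, the ligand gene, had the highest mean level per kilobase of the 5 genes in unmarked cells and was low in marked cells of day 60. In day 60 unmarked cells its 3 libraries read 38.615, 17.856 and 30.348 CPM, from 440, 208 and 441 reads. In day 60 marked cells they read 5.339, 2.26 and 0.626 CPM, from 66, 19 and 7 reads. The highest marked library was thus below the lowest unmarked one, and the means of 28.9 ± 10.5 and 2.74 ± 2.39 CPM (SD, n = 3 each) stood 10.6-fold apart. The fitted difference, on the scale of log2(CPM + 0.5) used for every fitted value here, was -3.42 ± 0.58 (SE), and the authors' deposited table gives -3.72. Ltb was the only one of the 5 genes among the 230 genes of the authors' count table for clustering.

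On day 270 the unmarked libraries read 16.846, 28.675 and 22.346 CPM of Ltb, near their day 60 level. The marked libraries read 8.467, 4.967 and 22.181 CPM. Replicate 3 of the marked cells lay inside the unmarked range while the other marked libraries were below it, so the groups overlapped. Their means were 22.6 ± 5.92 and 11.9 ± 9.10 CPM (SD, n = 3 each), a 1.91-fold lower level in marked cells, with a fitted difference of -1.13 ± 0.58 that did not pass (limma, adjusted p = 0.398; 0.158 to 0.722 over the alternatives). Without marked replicate 3 the difference was -1.69 and without marked replicate 2 it was -0.67, neither called. Within specimens, the marked member of the pair was lower in 3 of 3 pairs on each day, by -4.78 to -2.73 on day 60 and by -2.42 to -0.01 on day 270. No share over all genes is given for pair counts, here or below, so they are a description only. The difference between the days was 2.29 ± 0.83 and did not pass either (limma, adjusted p = 0.9999, unadjusted p = 0.0125). It shares its day 60 libraries with the contrast used to choose the genes.

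Summed levels of cell cycle genes were lower in marked cells as well. The 15 of 15 in the table reached 275 to 325 CPM in day 60 unmarked and 278 to 310 in day 270 unmarked libraries, against 89.0 to 121 and 131 to 164 in marked ones, with 5 called lower on day 60 and 0 on day 270 by limma. T and NK cell markers, of which 9 of 17 are in the table, summed to 12.02 to 41.8, 8.04 to 14.6, 27.7 to 35.4 and 20.1 to 39.5 CPM in day 60 unmarked, day 60 marked, day 270 unmarked and day 270 marked cells, so marked and unmarked cells overlapped on both days. Cd3d, Il7r and Gzma were at 0 in day 60 marked cells, Nkg7 in day 270 unmarked cells and Nkg7 and Gzma in day 270 marked cells. The B cell marker sums did not overlap between marked and unmarked libraries, but single markers went both ways. On day 60, 3 of 14 were higher and 11 lower in marked cells, with a median of -0.76 against -0.13 for all genes, and on day 270, 5 were higher and 9 lower, with a median of -0.16 against -0.22. The same 2 were called lower on each day, Cd79a and Fcmr, where 0.189% and 0.48% of all genes were called. Their means fell from 820 to 417 and from 306 to 95.6 CPM on day 60 and from 929 to 338 and from 276 to 100.1 CPM on day 270. Among the B cell markers Ciita alone was at 0 in a group, the day 60 marked cells. The part of these cells or of the cell cycle in the level of Ltb was not tested.

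Ltbr, the receptor gene of the Ltb trimer, was scarce in unmarked cells and higher in marked cells of both days. On day 60 the unmarked libraries read 2.633, 4.121 and 0.344 CPM, from 30, 48 and 5 reads. The marked libraries read 5.015, 9.993 and 10.905 CPM, from 62, 84 and 122 reads. All 3 marked libraries were above all 3 unmarked ones, with means of 8.64 ± 3.17 against 2.37 ± 1.90 CPM (SD, n = 3 each), 3.65-fold apart, and a fitted difference of 1.92 ± 0.65, where the authors' deposited table gives 2.57. Unmarked replicate 3, with 5 reads, carried part of this value, which was 1.19 without it.

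On day 270 Ltbr read 2.67, 6.255 and 6.033 CPM in unmarked and 12.105, 11.947 and 37.33 CPM in marked cells. The groups did not overlap, and marked replicate 3 stood far above the other marked libraries. The means were 4.99 ± 2.01 and 20.5 ± 14.6 CPM (SD, n = 3 each), 4.10-fold apart. The fitted difference of 1.80 ± 0.65 did not pass (limma, adjusted p = 0.236, unadjusted p = 0.0128), and over the alternatives the adjusted p ran from 0.061 to 0.751. Without marked replicate 3 it was 1.27, also not called. Ltbr was higher in the marked member of 3 of 3 pairs on each day, by 0.82 to 3.76 and by 0.88 to 2.53. The differences of the days themselves lay -0.12 ± 0.92 apart (limma, adjusted p = 0.9999), a standard error too large to call them alike.

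Myeloid and stromal cells also carry this receptor. The monocyte and macrophage marker sum of day 270 marked replicate 3, the library with most Ltbr, was the highest of all at 742 CPM, and none of these 13 markers was at 0 in any group. On day 60 these sums ran from 171 to 304 CPM in marked and from 119 to 389 CPM in unmarked cells. Marked minus unmarked differences of the single markers were positive for 7 of 13 on day 60 (median 0.03) and 11 of 13 on day 270 (median 0.60). Neutrophil markers, none at 0 in any group, were positive for 8 of 9 on day 60 (median 0.70) and 7 of 9 on day 270 (median 0.89), against medians of -0.13 and -0.22 for all genes. Stromal markers, of which 4 of 8 are in the table, summed to at most 6.87 CPM in any library, with Kitl and Col1a2 at 0 in day 270 marked cells and Pdgfrb at 0 in day 270 unmarked cells. None of the markers of these lists was called by limma. The part of such cells in the level of Ltbr was not tested. Without replicates 2 and 3 of the day 270 marked cells, which had the highest erythroid and the highest monocyte and macrophage marker sums, the day 270 difference of Ltbr was 1.28 and that of Ltb -1.33, neither called.

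**Figure D2:**
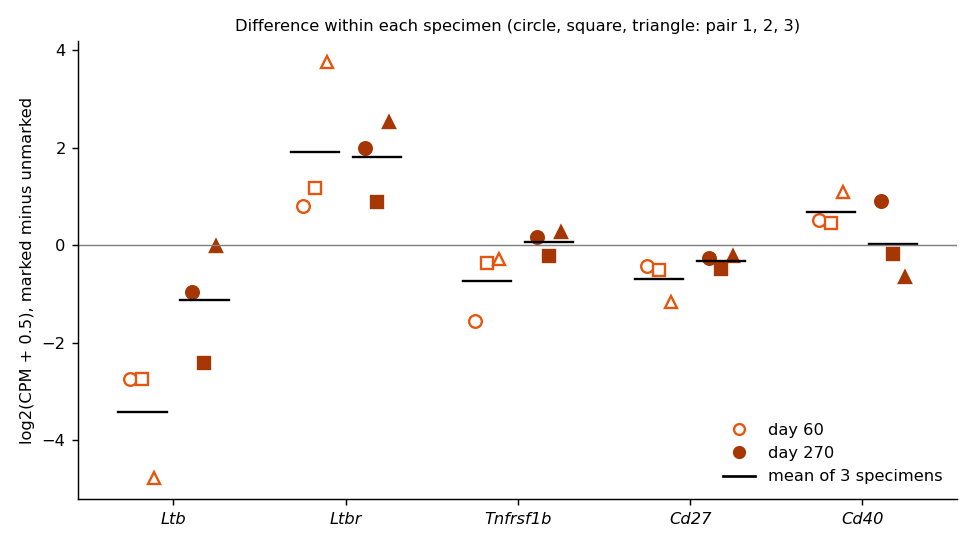
Marked minus unmarked difference of log2(CPM + 0.5) within each of the 3 specimens per day (vertical axis) for the 5 genes; open symbols are day 60, filled symbols day 270, shapes the pair, lines the mean. Ltb lies at or below 0 and Ltbr above 0 in every pair of both days, while Cd40 lies above 0 in 3 of 3 pairs on day 60 and 1 of 3 on day 270.

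The balance of ligand to receptor RNA was lower in every marked than in every unmarked library. Per kilobase of exons, with 0.5 CPM added to each gene, the ratio of Ltb to Ltbr was 19.4, 6.17 and 56.8 in day 60 unmarked and 1.64, 0.408 and 0.153 in day 60 marked libraries. On day 270 it was 8.50, 6.71 and 5.43 in unmarked and 1.10, 0.682 and 0.931 in marked libraries. Unmarked cells thus held more Ltb than Ltbr RNA in 6 of 6 libraries, and marked cells were near or below an even ratio. The mean log2 ratio was 4.24 ± 1.60 against -1.09 ± 1.72 on day 60 and 2.76 ± 0.32 against -0.17 ± 0.35 on day 270 (SD, n = 3 each). The differences were -5.34 and -2.93. The pair of genes was picked with values of both days known, so these ratios are a description without a test. Ltb and Ltbr as a pair had a Pearson r of -0.41 over the 12 libraries, which share group, depth and sort, so it is given only as a description.

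**Figure D3:**
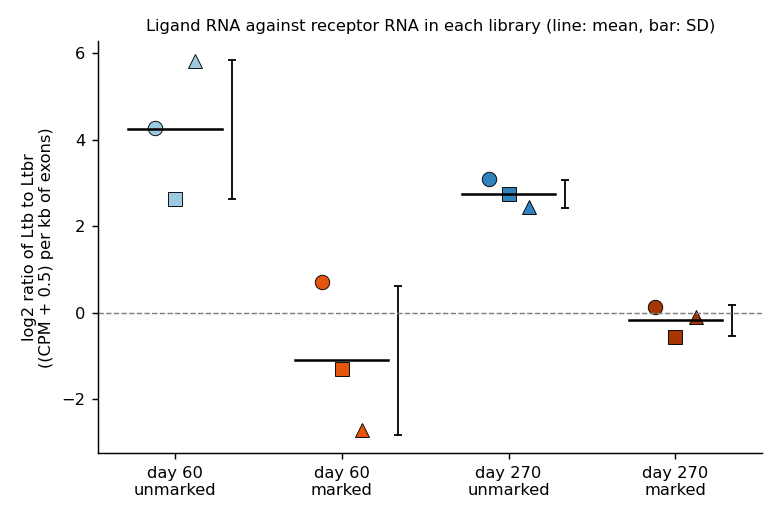
Log2 ratio of Ltb to Ltbr, each as CPM + 0.5 per kilobase of exons (vertical axis), in each library by group, with mean (line) and SD (bar); 0 means equal amounts. The 6 unmarked libraries lie above the 6 marked ones, with day 270 means of 2.76 and -0.17.

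Tnfrsf1b, the gene of the second TNF receptor, which binds TNF and homotrimers of lymphotoxin alpha, was lowest in day 60 marked cells. Its day 60 libraries read 35.105, 15.195 and 16.722 CPM in unmarked and 11.648, 11.659 and 13.765 CPM in marked cells. On day 270 they read 24.303, 31.369 and 22.271 CPM in unmarked and 27.346, 26.848 and 27.05 CPM in marked cells. The day 60 groups did not overlap, but unmarked replicate 1 stood far above the other unmarked libraries, and the day 270 groups overlapped. Unmarked replicate 1 also had the highest T and NK cell marker sum of all libraries (41.8 CPM) and the highest monocyte and macrophage sum of day 60 (389 CPM), and their part was not tested. The day 60 difference was -0.73 ± 0.33 (-0.60 in the authors' deposited table), and -0.36 without that library. On day 270 the difference was 0.07 ± 0.33 (limma, adjusted p = 0.942), with 2 of 3 pairs higher. The authors' table lists this gene under the nonsense-mediated decay biotype, while GENCODE M21 gives it as protein coding.

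Cd27, the gene of the CD70 receptor, was near the limit of counting. Day 60 unmarked libraries read 1.58, 1.717 and 0.619 CPM, from 18, 20 and 9 reads, and day 60 marked libraries 1.052, 1.071 and 0 CPM, from 13, 9 and 0 reads. A count of 0 in the last of these allows up to 0.268 CPM, counting error only. Day 270 libraries read 2.486, 3.56 and 2.83 CPM in unmarked and 2.007, 2.416 and 2.38 CPM in marked cells, from 18 to 38 reads each. The day 270 groups did not overlap, though the gap between them was 2.416 to 2.486 CPM, and the day 60 groups did. The fitted differences were -0.69 ± 0.62 on day 60 (-1.60 in the authors' deposited table), or -0.15 without the marked library at 0, and -0.31 ± 0.62 on day 270 (limma, adjusted p = 0.858). Cd27 was lower in the marked member of 3 of 3 pairs on both days. Exons of the microRNA gene Mir8113 share 129 bases with those of Cd27 on the same strand, and Vamp1 runs across Cd27 on the opposite strand without shared exonic bases, so reads of these genes may be counted together.

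Cd40, through which T cell help reaches B cells, read higher in the marked member of 3 of 3 pairs on day 60, with overlapping groups. Its libraries read 15.534, 9.872 and 9.91 CPM in day 60 unmarked and 22.488, 13.681 and 21.63 CPM in day 60 marked cells. On day 270 they read 12.612, 12.894 and 15.493 CPM in unmarked and 24.148, 11.276 and 9.738 CPM in marked cells. The groups overlapped on both days, and day 270 marked replicate 1 alone was high. The differences were 0.69 ± 0.39 on day 60 (0.89 in the authors' deposited table) and 0.03 ± 0.39 on day 270 (limma, adjusted p = 0.983). The sign on day 270 rested on single libraries, with -0.36 without marked replicate 1.

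Between the days in marked cells, 4 of the 5 genes had a higher mean on day 270, and Cd40 a lower one. Ltbr, Tnfrsf1b and Cd27 were higher on day 270 without overlap, 3 of 5 genes where 6.46% of all genes were, and none was lower, where 4.04% were. None was called by limma at adjusted p under 0.05 (background 0.0315%), nor by DESeq2, edgeR or limma-voom, and 3 had an unadjusted p under 0.05, namely Ltb, Tnfrsf1b and Cd27, beside 1225 of all 12704 genes. Mean Ltb was 4.33-fold, Ltbr 2.37-fold and Tnfrsf1b 2.19-fold higher on day 270. The fitted differences were 1.98 ± 0.58 for Ltb (limma, adjusted p = 0.298), 1.06 ± 0.65 for Ltbr (0.630), 1.11 ± 0.33 for Tnfrsf1b (0.298), 1.37 ± 0.62 for Cd27 (0.501) and -0.43 ± 0.39 for Cd40 (0.763). Without day 270 marked replicate 3 the difference was 0.52 for Ltbr and 1.41 for Ltb, and without day 60 marked replicate 3 it was 1.37 for Ltb and 0.82 for Cd27. Tnfrsf1b ran from 1.07 to 1.18 over the libraries left out, and Cd40 from -0.82 (without day 270 marked replicate 1) to -0.18 (without day 270 marked replicate 3). The median of the 5 was 1.11, and that of all genes 0.02. Markers of several cell types also had higher values on day 270, none of them called by limma. Differences were positive for 13 of 13 monocyte and macrophage markers (median 1.38), 8 of 9 neutrophil markers (median 1.39), 6 of 7 erythroid markers (median 1.305) and 5 of 7 T and NK cell markers (median 1.10). In the same order, 7, 0, 1 and 1 of these markers had an unadjusted p under 0.05 (limma). Their part in the levels of the 5 genes was not tested. This comparison shares the day 60 marked libraries with the day 60 contrast, which was used to choose the genes. Nothing is therefore read from the counts or the median of the 5 genes here.

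In unmarked cells Cd27 was higher on day 270 than on day 60 without overlap, 1 of 5 genes where 10.4% of all genes were. The differences were -0.31 for Ltb, 1.17 for Ltbr, 0.30 for Tnfrsf1b, 0.99 for Cd27 and 0.23 for Cd40, none called by limma (adjusted p = 1.0 for each), as was none of all genes (background 0.0%). Ltbr was at 0.45 without day 60 unmarked replicate 3, Tnfrsf1b at 0.67 without day 60 unmarked replicate 1 and at 0.08 without replicate 2, and Ltb at -0.07 without replicate 1 and at -0.62 without replicate 2. Here too markers of other cells had positive differences, 12 of 13 for monocytes and macrophages (median 0.90), 9 of 9 for neutrophils (median 1.002), 6 of 7 for T and NK cells (median 0.65) and 6 of 7 for erythroid cells (median 0.63), with 0 called, and their part was not tested. In the same order, 2, 0, 1 and 0 of these markers had an unadjusted p under 0.05 (limma). No member had an unadjusted p under 0.05 here, beside 378 of all genes, and DESeq2, edgeR and limma-voom called 0 of the 5. The difference of the marked minus unmarked contrast between the days called 0 of 5 as well (background 0.0%), with 1 at an unadjusted p under 0.05, Ltb, beside 387 of all genes, and 0 of the 5 by the other tools. For Tnfrsf1b, Cd27 and Cd40 it was 0.80 ± 0.46, 0.38 ± 0.88 and -0.66 ± 0.55. The comparisons of this paragraph share day 60 libraries with the contrast used to choose the genes, so nothing is read from the count for Ltb.

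Per kilobase of exons, the order of the 5 genes differed between the groups. In unmarked cells Ltb led, with mean levels of 19.1 CPM per kb on day 60 and 14.9 on day 270, and Tnfrsf1b followed with 5.85 and 6.80, then Cd40 with 3.46 and 4.01, Ltbr with 1.01 and 2.12 and Cd27 with 0.561 and 1.27. On day 270 neighbours in this order were separate in their library ranges except Ltbr and Cd27. On day 60 Tnfrsf1b and Cd40, and Ltbr and Cd27, overlapped. In day 60 marked cells Cd40 led with 5.66 CPM per kb, before Ltbr (3.67), Tnfrsf1b (3.24), Ltb (1.81) and Cd27 (0.304), and every pair of neighbours overlapped. In day 270 marked cells Ltbr (8.69), Ltb (7.83), Tnfrsf1b (7.09) and Cd40 (4.42) overlapped from neighbour to neighbour, and Cd27 (0.974) was separate below them.

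By group, mean Ltb fell in the order day 60 unmarked, day 270 unmarked, day 270 marked and day 60 marked, with overlap between all neighbours. Mean Ltbr fell from day 270 marked, separate from the rest, through day 60 marked and day 270 unmarked to day 60 unmarked, which overlapped from neighbour to neighbour. Day 60 marked cells were lowest and separate for Tnfrsf1b, whose other groups overlapped. Cd27 was highest in day 270 unmarked cells, then day 270 marked, each separate from the next, and the day 60 groups overlapped. All groups overlapped for Cd40.

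The genes whose log2 levels went most alongside Ltb over the 12 libraries were Llgl1 (Pearson r = 0.93), Slamf6 (0.92), Cdc20 (0.89), Fam168a (0.89) and Top2a (0.87). Slamf6, a receptor of the SLAM family, averaged 43.2 and 45.0 CPM in day 60 and day 270 unmarked cells and 4.56 and 11.6 CPM in the marked cells of these days. Cdc20, which turns on the ubiquitin ligase of anaphase, averaged 16.3 and 13.8 against 0.883 and 5.07 CPM. Top2a, the topoisomerase of dividing cells, averaged 27.4 and 25.6 against 1.63 and 6.79 CPM. Ltbr went most alongside Syngr1 (0.94), Tspan32 (0.93) and Gabarapl1 (0.92), Tnfrsf1b alongside Arhgap9 (0.94), Bend5 (0.90) and Gphn (0.90), Cd27 alongside Pde8b (0.92), Megf9 (0.91) and Cd4 (0.89), and Cd40 alongside Mpc1-ps (0.94), Fam188a (0.94) and Spcs1 (0.88). These were the highest r values among named genes and describe libraries that share groups; unnamed gene models were passed over, of which 2 ranked above some of the genes given for Ltb and 1 for Tnfrsf1b. Among the 5 themselves r was 0.61 for Ltb and Tnfrsf1b, 0.63 for Ltb and Cd27, 0.66 for Tnfrsf1b and Cd27 and -0.50 for Ltb and Cd40.

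The partners of these genes could be followed only in part. Lta, Tnf, Tnfsf14 (a further ligand of the lymphotoxin beta receptor) and Cd40lg (the ligand of CD40) were not among the 14219 genes of the table. Their levels could therefore not be followed. Cd70, the ligand of CD27, had 19 reads in all, 9 in day 60 marked replicate 2 and 10 in day 270 unmarked replicate 3, with 0 in the other 10 libraries. Of 14 other TNF family ligands, a list that includes Cd70, 5 were in the table and 3 passed the filter on low counts. None was called on either day or over time. On day 270 Fasl, the death ligand gene that pairs with Fas, was at 1.693, 9.128 and 6.384 CPM in marked and 0.552, 1.347 and 0 CPM in unmarked cells. These values came from 27 to 68 reads per marked and 0 to 14 per unmarked library. The groups did not overlap (background 3.28%), and the difference of 2.41 ± 0.76 did not pass (limma, adjusted p = 0.187).

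**Figure D4:**
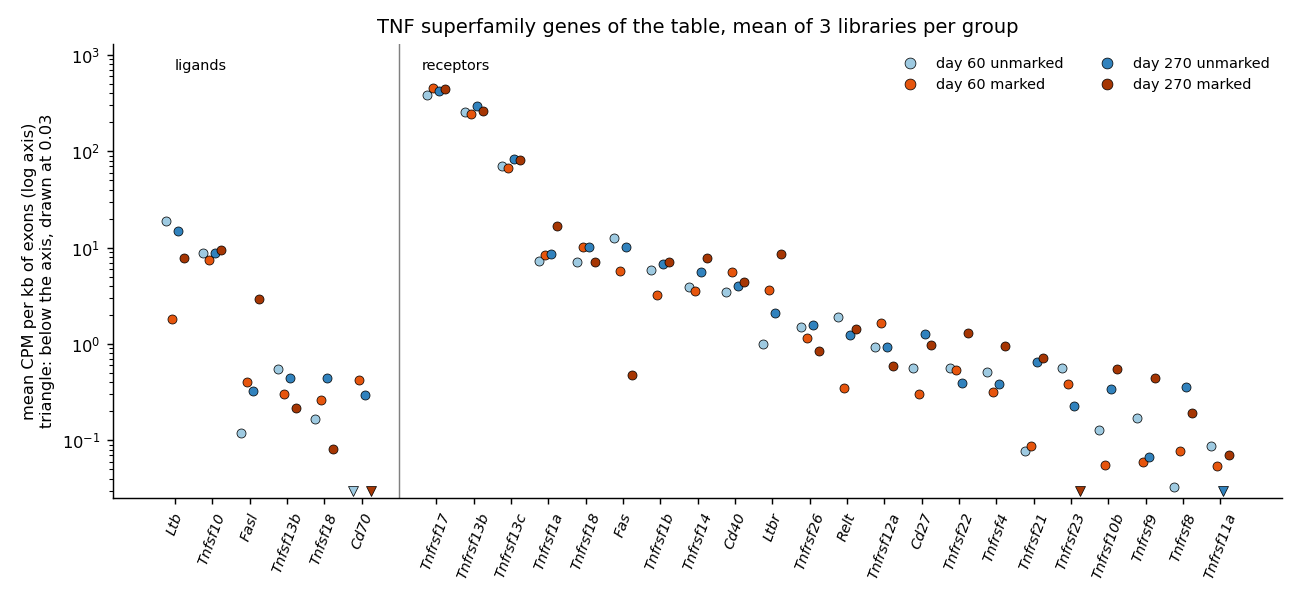
Mean level of the TNF family ligand and receptor genes of the table in the 4 groups, as CPM per kilobase of exons (vertical axis, log scale; triangles mark means under the axis, drawn at 0.03). Ltb is the ligand with the highest mean in unmarked cells (19.1 and 14.9 CPM per kb), and among the receptors Tnfrsf17, Tnfrsf13b and Tnfrsf13c lie far above Ltbr, Tnfrsf1b, Cd27 and Cd40.

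Of 24 other TNF receptor genes 18 were in the table and 17 passed the filter. On day 270, 7 were higher and 10 lower in marked cells, with a median of -0.07 against -0.22 for all genes, and 1 was called, lower, namely Fas. Fas encodes the death receptor of the family. It read 16.754, 26.751 and 19.59 CPM in day 270 unmarked and 1.443, 0 and 1.515 CPM in day 270 marked cells, without overlap. Its difference was -4.08 ± 0.52 (limma, adjusted p = 0.00115), and it was called in 15 of 17 alternatives, the exceptions being limma-voom (adjusted p = 0.0864) and the fit to the compared libraries alone (limma, adjusted p = 0.167). Between the days in marked cells Fas fell by 3.26 ± 0.52 (limma, adjusted p = 0.0264), a call kept in 10 of 17 alternatives and lost, among others, when any 1 of the 3 day 60 marked libraries was left out (limma, adjusted p = 0.0945 to 0.241). On day 60 none of these receptors was called by limma and 2 of 17 had an unadjusted p under 0.05, Fas and Relt, beside 819 of all 12704 genes.

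Relt, a lymphoid receptor of the family named here after its values were seen, averaged 6.22 ± 1.14 CPM in day 60 unmarked and 1.16 ± 0.498 in day 60 marked cells, then 4.11 ± 1.14 and 4.73 ± 1.96 on day 270 (SD, n = 3 each). Tnfrsf1a, the first TNF receptor and the neighbour of Ltbr on chromosome 6, averaged 19.1 ± 1.48, 21.8 ± 5.52, 22.5 ± 5.27 and 44.0 ± 20.6 CPM in day 60 unmarked, day 60 marked, day 270 unmarked and day 270 marked cells. Like Ltbr it had its highest value, 64.164 CPM, in day 270 marked replicate 3. Its day 270 difference of 0.86 ± 0.35 was not called by limma (adjusted p = 0.282) and was called by DESeq2 (adjusted p = 0.0187), the only call in 17 alternatives. The day 270 groups overlapped, with marked replicate 2 at 22.955 CPM inside the unmarked range of 16.536 to 26.42. The marked member was higher in 2 of 3 pairs.

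Downstream of the receptors, 16 of 16 adaptor and kinase genes, among them the TRAF genes and Map3k14, passed the filter and none was called by limma in any comparison. On day 270, 14 of the 16 were lower in marked cells, with a median of -0.42 against -0.22 for all genes, and 3 had an unadjusted p under 0.05 (Traf4, Traf5 and Tradd), beside 1773 of all 12704 genes. On day 60 their median was -0.11 against -0.13, with 0 at that level. None of 9 NF-kB subunit and feedback genes was called, with medians of -0.23 on day 60 and -0.29 on day 270, and Relb and Nfkbie had an unadjusted p under 0.05 on day 270. Of 7 genes that stroma turns on in response to lymphotoxin 3 were in the table and none was called, with 1 at an unadjusted p under 0.05 on each day, Madcam1.

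**Figure D5:**
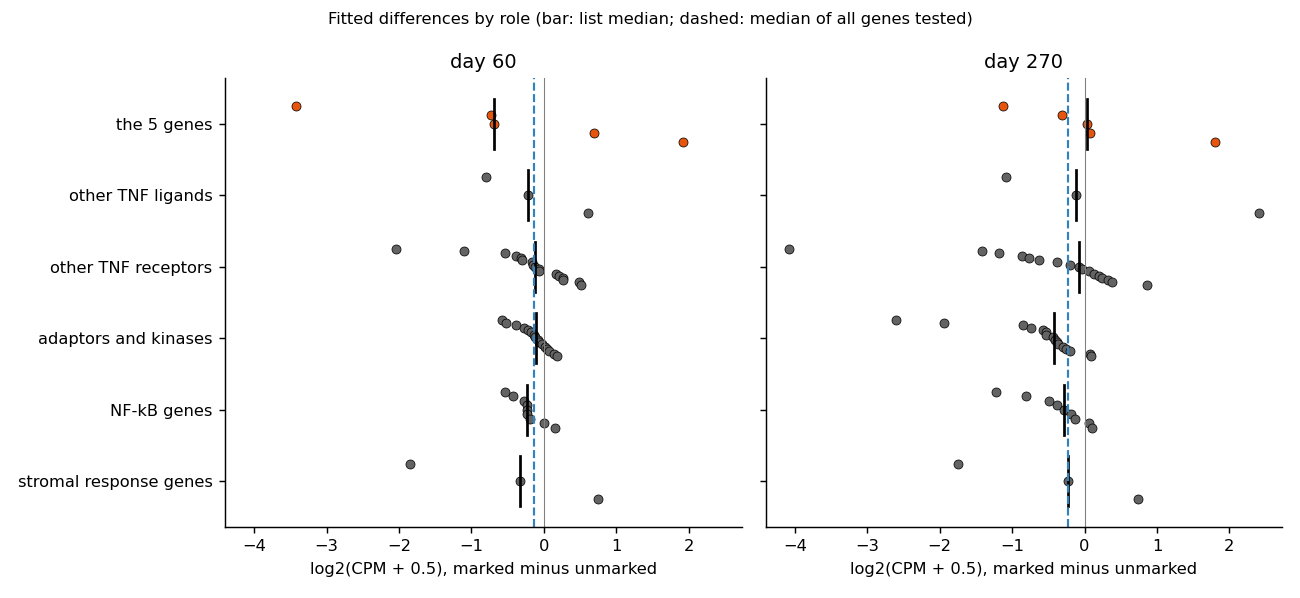
Fitted marked minus unmarked difference of log2(CPM + 0.5) (horizontal axis) for the 5 genes and for the other genes of the pathway by role, on day 60 (left) and day 270 (right); points are genes, bars list medians and the dashed line the median of all genes tested, -0.13 and -0.22. Ltb and Ltbr lie at -3.42 and 1.92 on day 60, and Fas, the lowest receptor, at -4.08 on day 270.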

How the data were processed

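RNA was extracted with RNeasy Micro kits and libraries made with a TruSeq RNA kit, per the labels' protocols. GRCm38 and limma are named, per the submitters' processing notes. No aligner, counter, annotation or strand setting is given in the sources used here. Per the file headers, the deposited table of 14219 genes gives CPM per library beside the authors' log2 fold changes and p-values. The deposited table for clustering gives counts of 230 genes. A deposited table of 265 genes held none of the 5 genes.

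Counts were recovered from CPM: of 151342 values under 1000 reads, 100% were whole within 0.05 reads, and 100% of the deposited count cells were matched. In R 4.3.3, limma 3.58.1 (eBayes with trend) was fitted to log2(CPM + 0.5) of all 12 libraries, with 1 coefficient per group and 8 residual degrees of freedom, tests two-sided. filterByExpr of edgeR 4.0.16 (minimum count 10 in 3 libraries) kept 12704 genes, the 5 among them, and dropped 1515. Calls needed an adjusted p under 0.05 (Benjamini-Hochberg over all genes kept). The steps were tested on simulated data. Levels per kilobase use the exon union of GENCODE M21, which held 14165 of the 14219 identifiers. Alternatives were DESeq2 1.42.0, edgeR and limma-voom on recovered reads, TMM scaling, pseudocounts of 0.1 and 2, no filter, at least 1 CPM in 6 libraries, a replicate block, the compared libraries alone, each library left out, and, added after seeing the data, replicates 2 and 3 of the day 270 marked cells left out together.

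The 5 genes and all lists were chosen with earlier results of these data known. Named were the 5 genes, list genes called in a tested comparison, the ligands of the 5, Tnfrsf1a and the genes of most similar pattern, 5 for Ltb and 3 for each other. Fasl, Relt and genes given only for an unadjusted p were added after their values were seen. Marked and unmarked libraries of a day pair through a specimen number in the labels; residuals correlated with a median of 0.0556 (range -0.0109 to 0.115, 6 pairs) within a specimen and -0.0194 (-0.104 to 0.0301, 12 pairs) between specimens. The labels do not say whether specimens were single animals or pools, so p-values measure the spread between these libraries. Replicate 1 of every group has library numbers 5 to 8. Among the others, unmarked libraries have numbers 13 to 16 and marked ones 22 to 27, so in those libraries the number and the marking cannot be told apart and give no within-set value.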

Additional observations from a re-analysis of the deposited data

How the results depend on the processing

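None of the 5 genes was called in any of the tested comparisons under any alternative run. Together, 98 alternative values of the counts and of the day 270 Ltb to Ltbr ratio stayed alike, for the ratio within the replicate spread. Most of these values were counts of 0 called genes. Also among them was the number of the 5 genes lower on day 60, a description from the contrast used to choose the genes. The 1 exception was the day 270 difference of the log2 ratio, -2.93, which was -2.55 with a pseudocount of 2, and it ran from -3.09 to -2.74 with 1 library left out. Leaving out the division by length could not change this difference, and TMM scaling nearly cancels in it (-2.92). The day 60 difference of the log2 ratio, -5.34, was not among these values. It was -4.11 with a pseudocount of 2 and -5.98 with a pseudocount of 0.1. Fitted differences of Ltb kept their sign throughout, with leave-one-out ranges of -3.99 to -2.81 on day 60 and -1.69 to -0.67 on day 270, as did those of Ltbr, 1.19 to 2.42 and 1.27 to 2.07. The Cd27 difference of day 60 was -1.67 with limma-voom.

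Signs turned in 17 alternatives, all of values that were not called, and the cause was not tested. With 1 library left out, the day 270 differences ran from -0.028 to 0.21 for Tnfrsf1b and from -0.36 to 0.27 for Cd40, and the differences between the days from -0.65 to 0.61 for Ltbr and from -0.17 to 0.69 for Cd27. The Ltbr difference between the days was 0.16 with DESeq2, 0.12 with edgeR and 0.20 with a pseudocount of 2. Without replicates 2 and 3 of the day 270 marked cells, Cd40 was at 0.35 between the days in marked cells and at 0.12 for the difference between the days.

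The replicate block is the specimen within a day for marked minus unmarked differences. With it 0 of the 5 genes were called, and Ltb on day 270 stayed at -1.13 (limma, adjusted p = 0.383) and Ltbr at 1.80 (limma, adjusted p = 0.257). The count over all genes was 38 in place of 24 on day 60 and 44 in place of 61 on day 270. The block changed no other call of the 5 genes. Between the days in marked or in unmarked cells the block is the replicate number, which joins different specimens and checks no pairing. TMM moved the median of all genes from -0.13 to -0.01 on day 60 and from -0.22 to -0.10 on day 270, and the 5 genes moved with it (on day 60, Ltb to -3.30 and Ltbr to 2.03). Calls over all genes were 5 higher and 19 lower on day 60 and 6 and 55 on day 270, and with TMM 12 and 22, and 22 and 67. They were 119 and 256 with DESeq2, 20 and 36 with edgeR, 25 and 50 with limma-voom, and 44 and 0 with the compared libraries alone, where marked cells between the days gave 0 in place of 4 (121 with DESeq2). With 1 library left out the counts ran from 3 (without day 60 unmarked replicate 2) to 53 (without day 270 marked replicate 2) on day 60, from 5 (without day 270 unmarked replicate 1) to 482 (without day 270 marked replicate 1) on day 270, from 0 to 161 (again without day 270 marked replicate 1) for marked cells between the days and from 0 to 8 (without day 60 unmarked replicate 1) for unmarked cells. Cd27, at 0 to 38 reads per library, and Ltbr in day 60 unmarked cells, at 5 to 48 reads, are limited in precision by counting.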
